A study of Mus musculus with 9 samples.

Results

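The 37 genes of the mouse mitochondrial genome were followed across 9 RNA-seq libraries of mouse cerebral cortex. They are all genes with a symbol starting with mt- on the mitochondrial chromosome, 37 of the 52550 genes in the tables, and comprise 13 messenger RNAs (mRNAs), 2 ribosomal RNAs (rRNAs) and 22 transfer RNAs (tRNAs). The study asked how the stroke cortex changes when an enhancer RNA, eRNA_06347, is knocked down. All mice were male C57BL/6N, 9 to 12 weeks old. In 2 groups the middle cerebral artery was occluded with a filament (MCAO, a model of ischemic stroke) for 1 h and reperfused for 6 h, and the infarcted cortex on the occluded side was taken. Before MCAO these mice received, through the lateral ventricles, either a locked nucleic acid antisense oligonucleotide against eRNA_06347 (knockdown, replicates 2, 3 and 4) or a negative control oligonucleotide (control oligo, replicates 1, 2 and 3). The sham mice (replicates 1, 2 and 3) had surgery without a filament, and their libraries were made earlier by the laboratory as part of another data set. The labels do not say that each library was a single animal, so p-values measure the spread between these libraries. eRNA_06347 itself was not analysed here.

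The mitochondrial genome is a small circle that is transcribed from both strands into long precursors. The tRNAs lie between most of the mRNAs and rRNAs, and cutting them out of the precursor releases the RNAs on either side. The mRNAs encode core subunits of the respiratory chain, the rRNAs build the mitochondrial ribosome and the tRNAs serve translation inside the organelle. Most mature mitochondrial mRNAs carry a short poly(A) tail, so they enter libraries made by poly(A) selection, while the mature tRNAs end in CCA. Of the 37 genes, 28 lie on the + strand (12 mRNAs, both rRNAs and 14 tRNAs) and 9 on the − strand (mt-Nd6 and 8 tRNAs).

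Libraries of the 2 MCAO groups held 4.40 to 4.92 gigabases aligned to annotated transcripts, of which mitochondrial genes took 9.82 to 15.5%. Sham libraries held 2.70 to 2.87 gigabases, with 0.231 to 0.464% mitochondrial. Levels are given as TPM, a length-normalized share of the library scaled to a fixed total. TPM is meant to allow levels of different genes to be compared. That comparison is limited for genes that share reads with a copy elsewhere in the genome or are shorter than a read. The read length taken from coverage was 141 nt in the MCAO and 51 nt in the sham libraries. The MCAO libraries were made from poly(A) RNA, whereas the sources used here do not describe how the sham libraries were made.

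Mitochondrial transcripts were a large part of all TPM in every MCAO library. Their share was 27.4, 24.8 and 28.9% in control oligo libraries 1, 2 and 3 and 22.6, 22.9 and 28.1% in knockdown libraries 2, 3 and 4. The means were 27.0% ± 2.08 and 24.5% ± 3.12 (SD, n = 3 each), and the libraries of the 2 groups overlapped. In sham libraries the share was 0.444, 0.577 and 0.277%. Messenger RNAs made up 89.7% ± 2.67 of the mitochondrial total in control oligo and 90.7% ± 0.636 in knockdown libraries, against 34.2% ± 2.11 in sham. The 2 rRNAs made up 7.36% ± 2.89, 6.81% ± 0.395 and 39.1% ± 2.73 of that total in control oligo, knockdown and sham. The 22 tRNAs made up 2.93% ± 0.430, 2.49% ± 0.528 and 26.8% ± 1.44 (SD, n = 3 each).

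**Figure D1:**
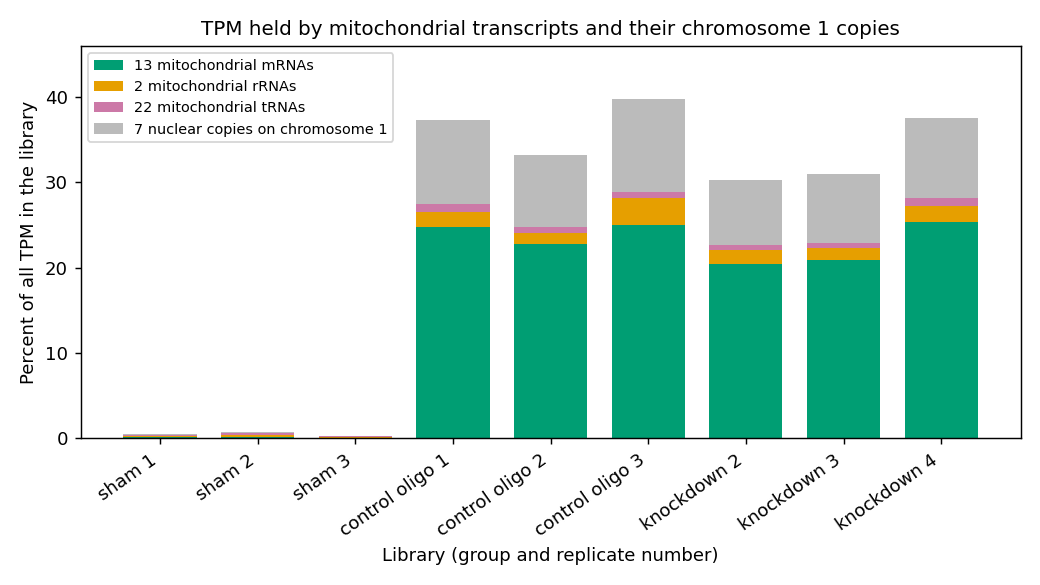
Percent of all TPM in each of the 9 libraries (x axis) held by mitochondrial mRNAs, rRNAs, tRNAs and the 7 nuclear copies on chromosome 1, as stacked bars. The 37 genes held 22.6 to 28.9% in the 6 MCAO libraries and 0.277 to 0.577% in the 3 sham libraries.

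The TPM values of 7 mRNAs can share reads with a nuclear copy of the mitochondrial genome. On chromosome 1, 7 annotated unprocessed pseudogenes (chr1:24611535-24616197, − strand, GRCm38) match 7 mitochondrial mRNAs at 99.71 to 100% identity each. They match nearly all of mt-Co2, mt-Atp6, mt-Co3, mt-Nd3 and mt-Nd4l, the end of mt-Co1 and the start of mt-Nd4. The 7 alignments cover 4136 mitochondrial bases between positions 6390 and 11042 (chrMT:6390-11042). mt-Atp8 and the tRNAs mt-Ts1, mt-Td, mt-Tk, mt-Tg and mt-Tr lie between these positions, almost wholly in the gaps between alignments, where identity was not measured. Only 2 base differences were found between the annotated copies and the mitochondrial genes. The lines here show the short windows around them, from GENCODE M21 transcripts, with the differing base in capitals. Positions are counted from 1 at the start of the mitochondrial gene.
mt-Nd3 (chrMT:9459-9481, + strand): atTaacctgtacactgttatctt
Gm28438 (chr1:24613097-24613119, − strand): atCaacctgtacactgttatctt
mt-Co1 (chrMT:6390-6413, + strand): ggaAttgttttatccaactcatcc
Gm29216 (chr1:24616165-24616188, − strand): ggaTttgttttatccaactcatcc
The differences are T3C in mt-Nd3 and A1066T in mt-Co1. Elsewhere in these annotated pairs a read inside the match cannot be placed by its sequence.

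The deposited tables gave most copies values of the size of the mitochondrial gene. In control oligo library 1, mt-Co2 had 21676 TPM and its copy Gm28661 had 21566 TPM. For mt-Co2, mt-Co3 and mt-Nd4l the ratio of gene to copy lay between 0.992 and 1.06 in all 9 libraries. mt-Nd3 stood at 0.872 to 0.953 of its copy Gm28438. mt-Atp6 was above its copy Gm10925 in each MCAO library (25193 against 18427 TPM in control oligo library 1) and at 0.365 to 0.441 of it in sham. Together the 7 copies held 9.73% ± 1.26 of all TPM in control oligo, 8.44% ± 0.929 in knockdown and 0.0824% ± 0.0315 in sham (SD, n = 3). The levels of these 7 mRNAs, and their order among all 13, therefore depend on how shared reads were split. Another 9 pseudogenes matched 7 mitochondrial mRNAs at 90.7 to 97.6% identity, and none of them exceeded 246 TPM.

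**Figure D2:**
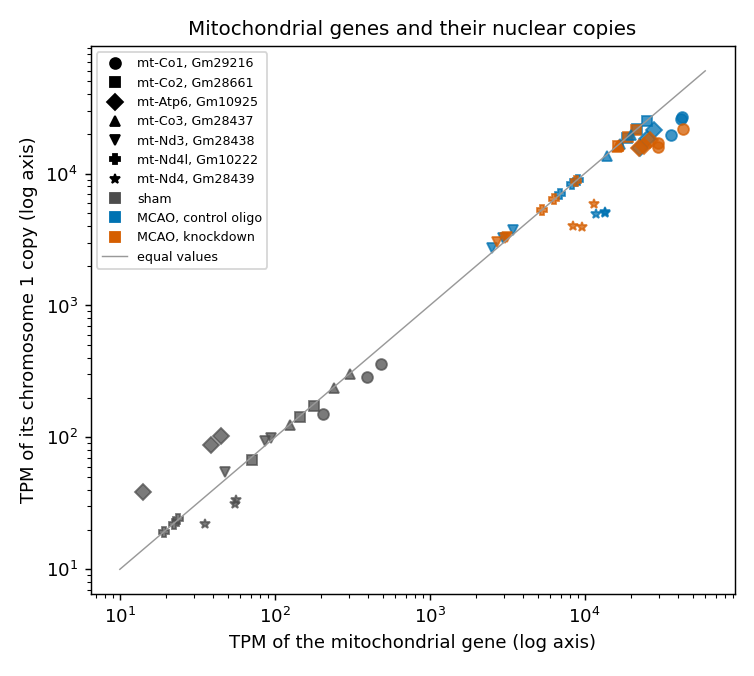
TPM of 7 mitochondrial genes (x axis, log scale) against TPM of their chromosome 1 copies (y axis, log scale), with 1 point for each gene and library and a line of equal values. mt-Co2, mt-Co3 and mt-Nd4l lie on the line in all 9 libraries, while mt-Atp6 lies on opposite sides of it in MCAO and sham libraries.

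Complex I, the NADH dehydrogenase, takes 7 of its subunits from the mitochondrial genome. Without the chromosome 1 copies, their mRNAs held 6.79% ± 0.373 of the TPM of control oligo libraries and 5.87% ± 0.787 of that of knockdown libraries (SD, n = 3 each). mt-Nd1 stood highest of them as deposited, with 15353, 12854 and 14942 TPM in the control oligo libraries and 12667, 12626 and 15644 TPM in the knockdown libraries. mt-Nd4 stood at 13571, 11833 and 13590 TPM in control oligo and at 8383, 9553 and 11486 TPM in knockdown libraries. With its copy added, weighted by length, mt-Nd4 had 16748, 14989 and 16853 TPM in control oligo, above mt-Nd1 in each of these libraries. In knockdown libraries it then had 10937, 12033 and 15192 TPM, below mt-Nd1 in each, and the groups overlapped. As deposited, the groups did not overlap for mt-Nd4, although its log2 change of -0.42 (SE 0.261) did not pass (limma adjusted p = 1). Of the 17080 genes tested, 5.40% did not overlap between these groups. mt-Nd2 and mt-Nd6 had mean levels of 11210 ± 816 and 10628 ± 1796 TPM in control oligo and 9866 ± 646 and 9077 ± 794 TPM in knockdown, and the groups overlapped for each.

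mt-Nd5 stood at 8839, 7834 and 6298 TPM in control oligo and 5497, 5452 and 8522 TPM in knockdown libraries. Knockdown library 4 was above 2 of the 3 control oligo libraries, and the log2 change was -0.26 (SE 0.284). mt-Nd6 is the only mRNA of the − strand and overlaps mt-Nd5 by 14 bases. mt-Nd6 stood at 1.17 to 1.59 times mt-Nd5 in the MCAO libraries and at 1.12 to 1.34 times in sham. The tables were made without a strand option, so reads of an mRNA and of antisense RNA over it cannot be told apart. mt-Nd3 stood lowest of the mitochondrial mRNAs as deposited, with 2983 ± 442 TPM in control oligo and 2963 ± 232 TPM in knockdown. With its copy added it was above mt-Nd5 in control oligo library 3 (7095 against 6298 TPM) and in knockdown libraries 2 and 3 (6248 and 6434 against 5497 and 5452 TPM). mt-Nd4l shares 7 bases with mt-Nd4 on a bicistronic mRNA, and its TPM was 0.511 to 0.760 of that of mt-Nd4 in the MCAO libraries. With the chromosome 1 copies added to both genes, that ratio was 0.820 to 1.19.

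mt-Cytb encodes cytochrome b, the mitochondrially encoded subunit of complex III. It stood at 22369, 19780 and 23175 TPM in control oligo and 15071, 16638 and 20764 TPM in knockdown libraries. Only knockdown library 4 reached into the control oligo range, and the log2 change of -0.33 (SE 0.304) did not pass. Complex IV is cytochrome c oxidase, whose catalytic core is encoded by mt-Co1, mt-Co2 and mt-Co3. The deposited TPM of mt-Co1 was 41633, 35858 and 42384 for control oligo libraries and 29958, 29661 and 42994 for knockdown libraries. On these values the lowest and the highest both came from knockdown libraries. With the copy Gm29216 added, the highest value was instead that of control oligo library 3 (50958 TPM). The lowest was then that of knockdown library 2 (34990 TPM), and the groups still overlapped. mt-Co2 had 21805 ± 3239 TPM in control oligo and 18924 ± 2516 TPM in knockdown, and mt-Co3 had 16913 ± 3051 and 16395 ± 271 TPM (SD, n = 3 each). As deposited, without the TPM of their chromosome 1 copies, complex IV mRNAs together held 7.87% ± 0.965 and 6.95% ± 0.985 of all TPM.

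Complex V is the ATP synthase, and mt-Atp8 and mt-Atp6 encode membrane subunits from a shared mRNA in which the genes overlap by 43 bases. mt-Atp8 was the highest mitochondrial gene of both MCAO groups by its mean as deposited, with 47664, 51620 and 46088 TPM in control oligo and 49984, 49142 and 58047 TPM in knockdown libraries. It was the only mitochondrial gene with a positive log2 change between knockdown and control oligo (0.11, SE 0.390). mt-Atp6 stood at 25278 ± 2583 and 24320 ± 2029 TPM (SD, n = 3). The ratio of mt-Atp8 to mt-Atp6 was 1.65 to 2.27 in the MCAO libraries, and it was 0.937 to 1.35 after the copy Gm10925 was added to mt-Atp6. mt-Atp8 has no annotated copy of its own and lies mostly between alignments, so its place at the top of the order is uncertain. With its own copy added, mt-Co1 was above mt-Atp8 in control oligo libraries 1 and 3 (49891 and 50958 TPM). It was below mt-Atp8 in the other MCAO libraries.

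**Figure D3:**
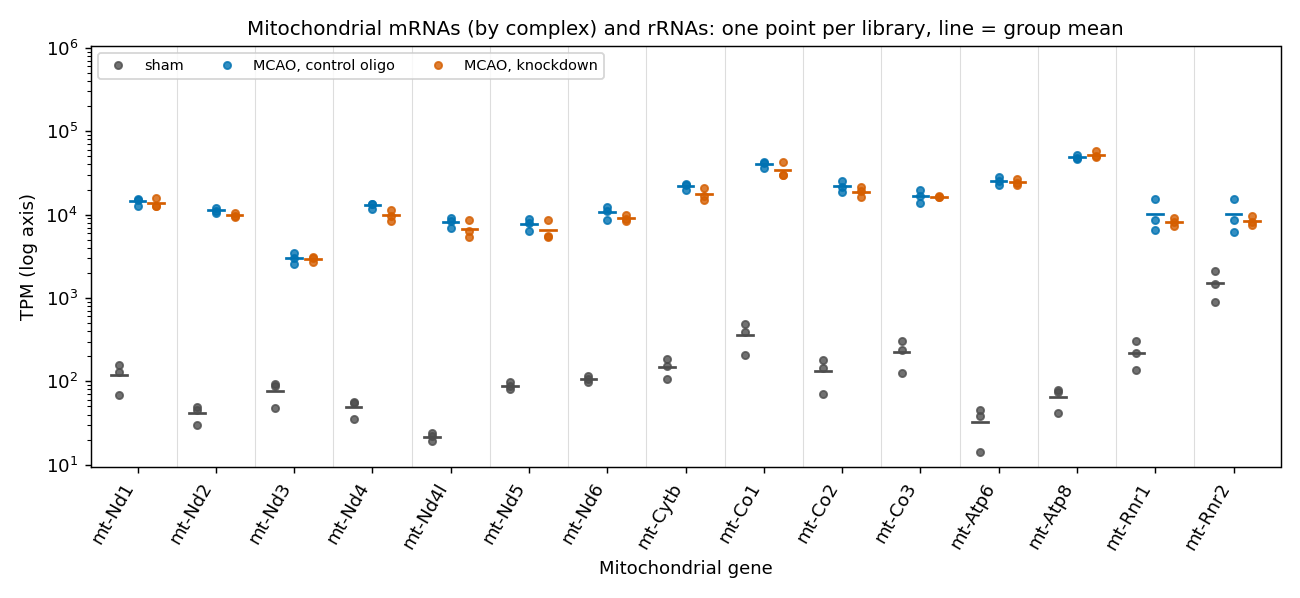
TPM (y axis, log scale) of the 13 mRNAs, ordered by respiratory complex, and the 2 rRNAs in each library, with 1 point for each library and a line at the mean of each group. As deposited, control oligo and knockdown points overlap for each gene except mt-Nd4, and all sham points lie lower.

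The rRNAs varied widely between the control oligo libraries. mt-Rnr1, the RNA of the small ribosomal subunit, stood at 8656, 6506 and 15474 TPM in control oligo and 8207, 7370 and 9200 TPM in knockdown libraries. mt-Rnr2, the RNA of the large subunit, stood at 8625, 6270 and 15237 TPM and at 8175, 7424 and 9693 TPM. Control oligo library 3 was the highest for both, and the groups overlapped. The 2 rRNAs kept nearly the same ratio, with mt-Rnr2 at 0.964 to 1.05 times mt-Rnr1 in all 6 MCAO libraries. In sham libraries mt-Rnr2 stood at 6.48 to 6.93 times mt-Rnr1.

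In knockdown against control oligo, mt-Ts2 was the only mitochondrial gene that passed, and it was also the only gene called lower among all 17080 tested (0.00585%). mt-Ts2 encodes the serine tRNA that reads AGY codons, and it lies in a run of 3 tRNAs between mt-Nd4 and mt-Nd5. The 3 sequences are shown because these neighbours differed in the comparison, with the anticodon in capitals. They are printed 5′ to 3′ as in GENCODE M21, all on the + strand of GRCm38.
mt-Th, histidine (chrMT:11546-11612): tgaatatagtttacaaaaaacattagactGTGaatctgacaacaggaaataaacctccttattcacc
mt-Ts2, serine (chrMT:11613-11671): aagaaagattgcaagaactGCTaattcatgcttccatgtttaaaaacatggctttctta
mt-Tl2, leucine (chrMT:11671-11741): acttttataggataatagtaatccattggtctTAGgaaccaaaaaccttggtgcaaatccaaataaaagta
mt-Ts2 begins at the base after mt-Th ends, and it shares 1 base with mt-Tl2. At 59 bases it is shorter than both neighbours, which have 67 and 71 bases.

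mt-Ts2 stood at 125, 141 and 125 TPM in control oligo libraries 1, 2 and 3. In knockdown libraries 2, 3 and 4 it stood at 0.609, 0.683 and 0.814 TPM. Each of the 3 knockdown libraries was under 1 TPM and each control oligo library over 100 TPM, so the groups were far apart. The log2 change was -6.27 (SE 0.166, limma adjusted p = 9.02e-05), and 0.0117% of the genes tested passed in this comparison. In sham libraries mt-Ts2 stood at 57.3, 28.4 and 47.3 TPM. The aligned bases inside the gene were 18752, 21615 and 20930 in control oligo and 90.6, 108 and 122 in knockdown libraries. The mean coverage per base was 318, 366 and 355 in control oligo and 1.54, 1.83 and 2.07 in knockdown libraries. The gene is shorter than a read of 141 nt, so a read of that length over it also covers bases outside it. Total aligned bases were 4.48, 4.92 and 4.70 gigabases in control oligo and 4.77, 4.83 and 4.40 gigabases in knockdown libraries.

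The tRNA genes on both sides did not pass. mt-Th stood at 203, 239 and 209 TPM in control oligo and 71.6, 74.2 and 230 TPM in knockdown libraries, with a log2 change of -1.01 (SE 0.441) that did not pass (limma adjusted p = 1). mt-Tl2 stood at 109, 113 and 106 TPM and at 49.5, 50.7 and 126 TPM, with a log2 change of -0.68 (SE 0.356, limma adjusted p = 1). Knockdown libraries 2 and 3 were below all control oligo libraries for both genes, and knockdown library 4 was within or above their range. The ratio of mt-Ts2 to the mean of mt-Th and mt-Tl2 was 0.796 to 0.802 in the 3 control oligo libraries, 0.00459 to 0.0109 in the knockdown libraries and 0.456 to 1.20 in sham. mt-Ts2 was low in relation to its neighbours in all 3 knockdown libraries, including library 4, in which those neighbours were at the control level.

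The only other gene that passed was Gm7808, an annotated processed pseudogene on chromosome 9, named here after its values were seen. It was listed at 0 in all control oligo and sham libraries and at 10.2, 12.0 and 8.53 TPM in knockdown libraries (limma adjusted p = 0.00317), the 1 gene called higher (0.00585%). Its call was lost when any 1 control oligo library was left out (adjusted p = 0.0524 to 0.0874), whereas that of mt-Ts2 held with each of the 6 libraries left out in turn (adjusted p = 0.000711 to 0.00501).

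Across the 37 genes most changes were negative and small. In knockdown against control oligo, 36 of 37 log2 changes were negative (12 of 13 mRNAs, both rRNAs and all 22 tRNAs), and 36 of 37 did not pass. The median was -0.20 over the mRNAs, -0.35 over the tRNAs and -0.24 over all 37, beside 0.06 over all genes tested. At an unadjusted p under 0.05, 1 of the 37 passed, beside 1.88% of all genes tested. As deposited, the groups did not overlap for 2 of the 37, mt-Ts2 and mt-Nd4, near the 5.40% of all genes tested. With the copy of mt-Nd4 added to it, the groups overlapped for that gene. Mitochondrial levels within a library share that library's RNA, so these 36 signs are not independent of each other. In bulk tissue, fewer cells of a type and less RNA per cell cannot be told apart.

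The same comparison was repeated on shares of the mitochondrial total, for which each library was scaled to an equal sum over the 37 genes. mt-Ts2 was again the only mitochondrial gene that passed (log2 change -6.18, SE 0.232, limma adjusted p = 0.000221), and 0.0117% of all genes tested passed. Its share of the mitochondrial total was 0.0487% ± 0.00734 in control oligo and 0.000286% ± 1.51e-05 in knockdown (SD, n = 3). On this scale 28 of the 37 changes were negative and 9 positive, with a median of -0.10 beside 0.18 over all genes tested. mt-Atp8 held 18.1% ± 2.51 of the mitochondrial total in control oligo and 21.4% ± 0.739 in knockdown. mt-Co1 held 14.8% ± 0.363 and 13.8% ± 1.26, and mt-Cytb 8.05% ± 0.0895 and 7.11% ± 0.388. None of these shares passed. On this scale, with no copies added, the groups did not overlap for 3 of the 37 genes, mt-Ts2, mt-Nd4 and mt-Cytb. Overlap over all genes tested was not counted on this scale.

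**Figure D4:**
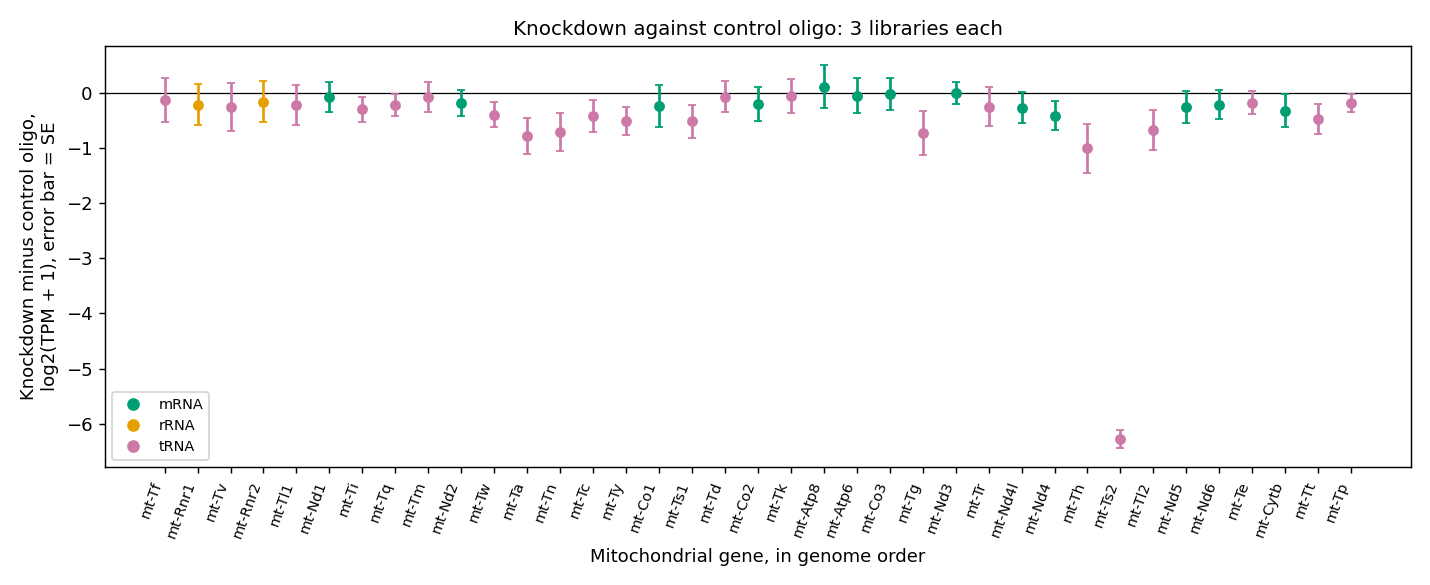
Difference in log2(TPM + 1) between knockdown and control oligo (y axis, 3 libraries each, error bars are the SE from limma) for the 37 mitochondrial genes in genome order (x axis), coloured by class. mt-Ts2 lies at -6.27, and the other 36 genes lie between -1.01 and 0.11.

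The knockdown libraries were not alike. Knockdown library 4 was the highest of its group for 22 of 22 tRNAs, 11 of 13 mRNAs and both rRNAs. For the 21 tRNAs other than mt-Ts2, the median level relative to the control oligo mean was 0.652 in knockdown library 2, 0.606 in library 3 and 1.06 in library 4. mt-Ta, the alanine tRNA, stood at 1152, 752 and 779 TPM in control oligo and 423, 382 and 821 TPM in knockdown libraries (log2 change -0.78, SE 0.330). mt-Tn, the asparagine tRNA, stood at 1555, 1013 and 1018 TPM and at 600, 522 and 1153 TPM (log2 change -0.72, SE 0.340). In both, libraries 2 and 3 were below every control oligo library and library 4 was not. mt-Tg, the glycine tRNA, was low throughout, with 17.7 ± 3.44 TPM in control oligo (SD, n = 3) and 5.65, 10.1 and 17.9 TPM in knockdown (log2 change -0.73, SE 0.392). The limma adjusted p was 1 for each of the 3.

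Without knockdown library 4 the median over the 37 genes was -0.46, and that over the tRNAs -0.68, beside 0.08 over all genes tested. Of the 37 genes, 22 (17 tRNAs and 5 mRNAs) then had an unadjusted p under 0.05, a level reached by 5.62% of all genes tested. mt-Ts2 was still the only one of them that passed, and the next smallest adjusted p was 0.102 (limma). Library 4 was left out here because it was the highest of its group for most of these genes. The lower medians follow from that choice, and the p-values are not an independent test. The 22 genes share the RNA of each library and are not independent of each other.

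Knockdown library 4 also stood apart in markers of other cells. The neutrophil list, of which 4 of 6 genes were kept, summed to 1389 TPM in that library, against 74.7 and 91.8 TPM in the other knockdown libraries, 31.0 to 336 TPM in control oligo and 2.59 to 7.59 TPM in sham. The astrocyte list, with 6 of 6 genes kept, summed to 2287 TPM there, against 906 TPM in knockdown library 2, the lowest of the MCAO libraries, 1184 TPM in library 3 and 1097 to 1342 TPM in control oligo. Gfap alone held 1548 TPM of the sum in library 4. It stood at 274 and 437 TPM in libraries 2 and 3 and at 362 to 647 TPM in control oligo. Gja1 stood at 77.5 TPM in library 4, below its control oligo range (102 to 113 TPM). Aqp4 and Aldh1l1 were highest in library 4. The microglia and endothelial lists summed to 449 and 265 TPM there. The other MCAO libraries held 209 to 256 and 110 to 147 TPM. The part of these cells in the mitochondrial values was not tested. Knockdown library 3 held 61.4 TPM of the choroid plexus list (2 of 6 genes kept), against 2.27 to 3.74 TPM in the other libraries. Ttr alone held 56.7 TPM of that sum. Kcnj13, the other gene kept, stood at 1.88 TPM there and at 0.703 to 1.67 TPM in the other libraries. mt-Ts2 was below 1 TPM in all 3 knockdown libraries.

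The tRNA genes with the highest TPM in the MCAO libraries were not those of the sham libraries. These genes are shorter than a read of the MCAO libraries, so such reads also cover bases outside them. How far their TPM reflects mature tRNAs was not tested. Sham reads were shorter, and the sources used here do not describe how those libraries were made. mt-Te, the glutamate tRNA, led with 1766 ± 333 TPM in control oligo and 1549 ± 252 TPM in knockdown (SD, n = 3), and stood at 26.0 ± 5.85 TPM in sham. mt-Tn, mt-Tl1 (the leucine tRNA next to mt-Rnr2) and mt-Ta followed in control oligo, with 1195 ± 312, 955 ± 182 and 894 ± 224 TPM. mt-Tn was above mt-Tl1 and mt-Ta in each control oligo library, and differences between these genes were not tested. Both mt-Tn and mt-Ta, like mt-Te, lie on the − strand, opposite to the precursor that carries most mRNAs. Without a strand option, reads over these genes cannot be assigned to the − strand. The lowest tRNA of the control oligo group was mt-Ts1, at 4.19 ± 1.23 TPM.

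**Figure D5:**
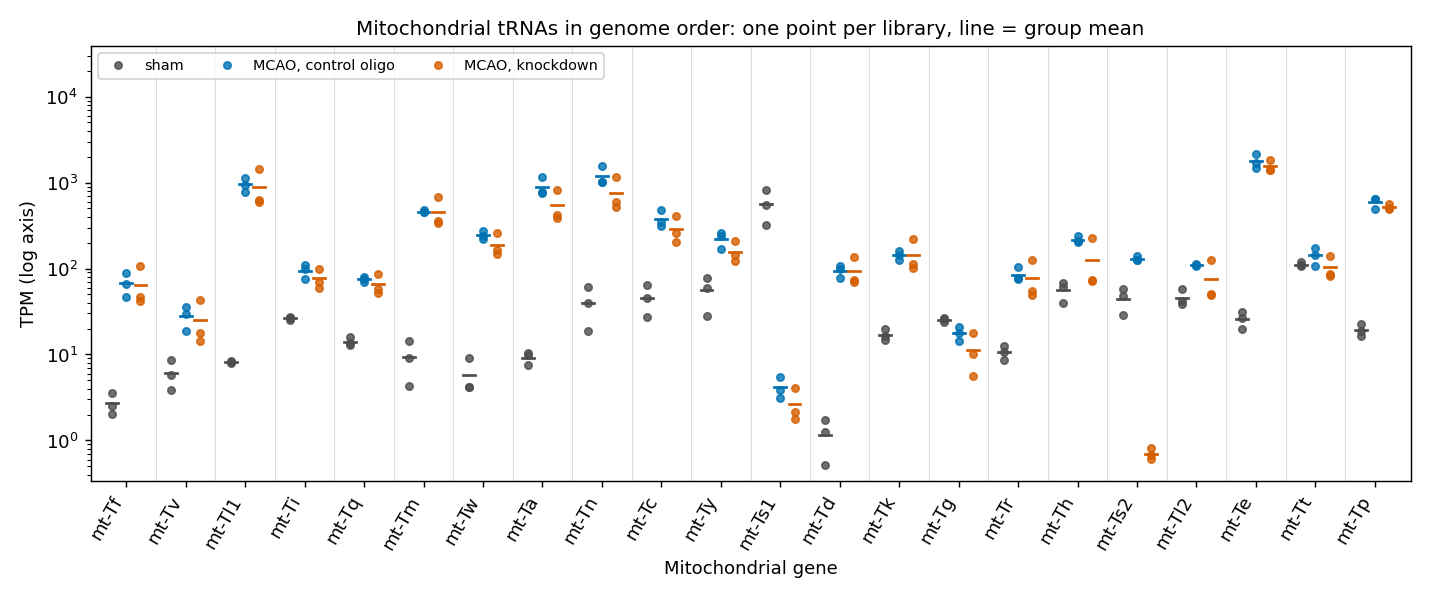
TPM (y axis, log scale) of the 22 tRNAs in genome order (x axis), with 1 point for each library and a line at the mean of each group. mt-Ts2 is the only tRNA with all knockdown points under 1 TPM, and mt-Ts1 is high in sham libraries and low in all MCAO libraries.

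Control oligo and sham libraries were compared next, to place these levels against cortex without stroke. Stroke, the oligonucleotide, the data set, the read length and possibly the RNA selection differ together here and cannot be told apart. Small structural RNAs held 63.6% ± 2.42 of all TPM in sham and 0.623% ± 0.0353 in control oligo (SD, n = 3). The median gene was 0.56 higher in control oligo on the log2 scale, and median-ratio scaling of the libraries moved that median to 0.01. limma called 65.4% of all genes tested in either direction, 52.6% higher and 12.8% lower, and for 70.4% the groups did not overlap. Of the 37 mitochondrial genes 34 were called higher and 2 lower, and the groups did not overlap for 36. After the scaling the counts of mitochondrial genes were the same, while 26.1% of all genes tested were called higher and 29.2% lower.

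All 13 mRNAs rose against sham, with a median log2 change of 7.22 (6.56 after scaling). mt-Atp6 changed by 9.70 (SE 0.362, limma adjusted p = 3.57e-07), from 38.8, 45.3 and 14.2 TPM in sham to 25193, 22739 and 27904 TPM, and mt-Atp8 by 9.56 (SE 0.216). With its copy added mt-Atp6 changed by 8.75 (SE 0.333), so the order of these 2 depended on the copy. mt-Nd3 had the smallest change among mRNAs at 5.32, from 87.1, 94.0 and 47.6 TPM to 2982, 2542 and 3426 TPM. The rRNAs changed unequally, by 5.50 for mt-Rnr1 (SE 0.353) and 2.74 for mt-Rnr2 (SE 0.369). mt-Rnr2 was the highest mitochondrial gene of the sham libraries, at 1465, 2126 and 888 TPM, and held 34.0% of their mitochondrial total.

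Among the 22 tRNAs, 19 were called higher and 2 lower, and the median log2 change was 2.95 (2.31 after scaling). mt-Tl1 changed by 6.68 (SE 0.155, limma adjusted p = 1.58e-08), from 8.08, 8.48 and 8.05 TPM to 1142, 778 and 946 TPM. mt-Tt, the threonine tRNA, had 107, 118 and 109 TPM in sham and 175, 107 and 144 TPM in control oligo, and its log2 change of 0.32 did not pass (adjusted p = 0.141). Its sign was negative after median-ratio scaling (-0.34). mt-Tg fell by 0.50 on the log2 scale (adjusted p = 0.0276). That call was lost when any 1 sham library was left out (adjusted p = 0.0592 to 0.0946), in 1 fit over 9 libraries (adjusted p = 0.186) and with TPM over genes off the mitochondrial chromosome (-0.077, adjusted p = 0.696).

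mt-Ts1 went the other way by a wide margin. This gene encodes the serine tRNA that reads UCN codons, lies on the − strand and overlaps the 3′ end of mt-Co1 on the opposite strand by 3 bases. Its sequence is printed because it is the second serine tRNA and the one that fell most.
mt-Ts1, serine (chrMT:6870-6938, − strand): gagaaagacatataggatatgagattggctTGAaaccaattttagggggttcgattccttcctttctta
mt-Ts1 stood at 551, 826 and 321 TPM in sham, where it was the second highest mitochondrial gene. It stood at 3.14, 5.54 and 3.89 TPM in control oligo and 1.79, 2.16 and 4.07 TPM in knockdown libraries. The log2 change of control oligo against sham was -6.69 (SE 0.322, limma adjusted p = 1.66e-06). Its mean coverage per base was 1299, 1832 and 799 in the sham libraries and 4.52 to 14.4 in the MCAO libraries. The gene is longer than a read of 51 nt in sham and shorter than a read of 141 nt in MCAO libraries. mt-Ts1 lies between the alignments to chromosome 1, where no copy of it is annotated.

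Knockdown libraries against the same sham libraries gave 31 genes higher, 3 lower and 3 that did not pass, while limma called 65.3% of all genes tested (52.7% higher and 12.5% lower). The groups did not overlap for 35 of the 37, beside 72.1% of all genes tested. The 13 mRNAs and both rRNAs rose, with log2 changes of 5.32 to 9.67 for the mRNAs and of 5.28 and 2.58 for mt-Rnr1 and mt-Rnr2. The genes that fell were mt-Ts1 (-7.22), mt-Ts2 (-4.68, SE 0.254, adjusted p = 9.02e-06) and mt-Tg (-1.23). mt-Ts2 had risen by 1.59 in control oligo against sham (SE 0.234, limma adjusted p = 0.000492). The 3 genes that did not pass were mt-Th (0.95, adjusted p = 0.0885), mt-Tl2 (0.58, adjusted p = 0.179) and mt-Tt (-0.15, adjusted p = 0.545). The calls of some tRNAs near the sham level depended on the setting. With TPM over genes off the mitochondrial chromosome mt-Th and mt-Tl2 were called higher (adjusted p = 0.0306 and 0.0468), and mt-Tg was not called (-0.87, adjusted p = 0.0616). mt-Tt was called lower after median-ratio scaling (-0.87, adjusted p = 0.0194) and without knockdown library 4 (-0.40, adjusted p = 0.00958). Both comparisons share the 3 sham libraries, so they are not independent. After median-ratio scaling 29 of the 37 were called higher and 4 lower, beside 22.7% and 27.1% of all genes tested, with the calls of mt-Tv and mt-Ty lost (adjusted p = 0.0659 and 0.0853).

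Nuclear genes that serve mitochondrial transcription and RNA maturation showed no call between knockdown and control oligo, a comparison in which 1.88% of all genes tested had an unadjusted p under 0.05. In the list of mitochondrial transcription and DNA maintenance, 0 of 25 genes passed and 0 had an unadjusted p under 0.05 (limma), with a median log2 change of 0.05. Gabpa, a transcription factor for nuclear genes of the respiratory chain, stood at 9.21, 12.1 and 9.34 TPM in control oligo and 14.6, 11.8 and 15.6 TPM in knockdown libraries (log2 change 0.42, SE 0.205). Tfb2m, a transcription factor of the mitochondrial polymerase, stood at 15.6 ± 3.88 and 20.2 ± 4.96 TPM (log2 change 0.35, SE 0.255). In the list of mitochondrial RNA processing, modification and decay, 0 of 34 genes passed and 0 had an unadjusted p under 0.05, with a median of 0.08. Ptcd1, which acts on mitochondrial RNA, had a log2 change of 0.37 (SE 0.243) and Cdk5rap1, which modifies mitochondrial tRNAs, one of -0.38 (SE 0.255). The 19 mitochondrial aminoacyl-tRNA synthetases also gave 0 calls and 0 unadjusted p under 0.05 (median 0.05). Vars2, the valine enzyme, had a log2 change of -0.29 (SE 0.202).

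The nuclear-encoded partners of the mitochondrial subunits likewise gave no call. Among complex I subunits 0 of 36 passed (median -0.00, range -0.24 to 0.23), and Ndufb4 stood at 52.1 ± 4.93 TPM in control oligo and 45.8 ± 3.39 TPM in knockdown. Among complex III, IV and V subunits 0 of 9, 0 of 12 and 0 of 15 passed, with medians of -0.03, -0.04 and 0.01. Of these 72 genes 0 had an unadjusted p under 0.05 (limma), beside 1.88% of all genes tested. Uqcr10 of complex III had a log2 change of -0.21 (SE 0.178), Cox7c of complex IV one of 0.20 (SE 0.174) and Atp5j of complex V one of 0.30 (SE 0.203).

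Against sham, the same nuclear partners changed far less than the mitochondrial mRNAs did. In control oligo 33 of 36 complex I, 9 of 9 complex III, 12 of 12 complex IV and 14 of 15 complex V subunits were called higher, beside 52.6% of all genes tested. Their medians were 0.81, 1.13, 1.05 and 1.09, beside 0.56 over all genes and 7.22 over the 13 mitochondrial mRNAs. After median-ratio scaling 6, 5, 4 and 8 of them were higher and 3, 0, 0 and 1 lower, beside 26.1% higher and 29.2% lower over all genes. Of the RNA processing list 21 of 34 were higher and 0 lower, and of the transcription list 12 of 25 were higher and 1 lower, which is near the share of all genes tested. After scaling these counts became 12 and 4, and 4 and 6. Of the synthetases 7 of 19 were higher and 1 lower, and 2 and 6 after scaling, so the direction of this list depended on the scaling.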

How the data were processed

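Each library had a deposited StringTie table with TPM, FPKM and mean coverage per base for each of 131100 transcripts. Per the submitters' processing notes the authors aligned with HISAT2 2.0 and quantified with StringTie 1.3 on GRCm38/mm10, and per the file headers StringTie was 1.3.4d, run with -e and -B on a merged annotation without a strand option. Per the labels, MCAO libraries were stranded poly(A) TruSeq libraries read as pairs on a NovaSeq. How reads with more than 1 placement were shared is not given in the sources used here. The tables hold no read counts, so no count-based test was run.

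TPM was summed over each gene ID. Genes with TPM of at least 1 in at least 3 of 9 libraries were kept, which left 17080 genes and all 37 mitochondrial ones. In R 4.3.3, the trend method of limma 3.58.1 was applied to log2(TPM + 1) of the 6 libraries compared, a scale that understates folds of low genes. The threshold was 0.05 after Benjamini-Hochberg adjustment over all genes kept. The fit was tested on simulated data. Median-ratio scaling used, as the factor of a library, the median over genes of its ratio to the geometric mean. Aligned bases are coverage times length, and the read length was taken from the most frequent bases of a pair.

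Nuclear copies were found with BLAST 2.17.0 of GENCODE M21 transcripts, at an identity of at least 90% over at least 100 bases. Where a copy was added to its gene, its TPM was first multiplied by its length over that of the gene. The percent of all TPM held with the copies used unweighted TPM. The GENCODE coordinates of the 37 genes equalled those in the tables. GENCODE types were found for 52403 of 52550 genes, and small structural RNAs are those typed miscRNA, miRNA, snRNA, snoRNA, scaRNA or ribozyme. Python 3.11.15, pandas 2.3.3, numpy 2.4.6 and matplotlib 3.10.9 were used.

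The 37 members and the 18 other lists (222 genes) were chosen with earlier results of these data known. All members could be named, and of each other list up to 4 kept genes with the smallest p in knockdown against control oligo. Marker lists covered excitatory and inhibitory neurons, astrocytes, oligodendrocytes, microglia, endothelial cells, neutrophils, striatum, choroid plexus and erythroid cells. Alternatives were a pseudocount of 0.1, no filter, FPKM, median-ratio scaling, TPM over genes off the mitochondrial chromosome, 1 fit over 9 libraries, the replicate number as a block, leaving out each library, other totals for the shares and, chosen after seeing the data, the chromosome 1 copies added to their members.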

Additional observations from a re-analysis of the deposited data

How the results depend on the processing

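The count of mitochondrial genes called in knockdown against control oligo was 1 under 13 of 14 alternatives, and it was mt-Ts2 each time, with log2 changes of -7.35 to -5.63 and limma adjusted p of 7.66e-07 to 0.00501. The exception was the fit with the replicate number as a block, which called 0 mitochondrial genes (mt-Ts2 -6.35, adjusted p = 0.168). Gm7808 lost its call there too (adjusted p = 0.400). Only replicates 2 and 3 exist in both groups, and their deviations correlated at 0.231 and 0.0743, so the groups share numbers without a shown pairing. On shares of the mitochondrial total the block kept the call of mt-Ts2 (adjusted p = 0.0259). With rRNAs and tRNAs left out of the shares, 0 of the 13 mRNAs passed, since mt-Ts2 is not among them.

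The mitochondrial share was lower when counted as aligned bases, 13.3% in control oligo and 11.3% in knockdown. With the copies on the list written earlier added, which held 6 of the 7 chromosome 1 copies (without Gm10222) and Gm28048, it was 35.95% and 32.3%. With all 7 chromosome 1 copies it was 36.8% and 33.0%. Against sham, mt-Tt turned to -0.27 with FPKM and -0.34 with median-ratio scaling in control oligo, and to 0.24 with TPM over genes off the mitochondrial chromosome in knockdown. mt-Tl2 turned to -0.039 with FPKM and -0.13 with median-ratio scaling in knockdown against sham. The counts of 36 and 34 genes called against sham stayed within 35 to 37 and 33 to 35. The calls that mt-Tt gained with FPKM (adjusted p = 0.0287) and the block (adjusted p = 0.0372) were lower in knockdown against sham. In control oligo against sham mt-Tt was called higher with TPM over genes off the mitochondrial chromosome (0.77, adjusted p = 0.00526) and without control oligo replicate 2 (0.51, adjusted p = 0.00992). Genes near 1 TPM, such as mt-Ts2 in knockdown and mt-Ts1 in MCAO libraries, rest on few reads.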

Other observations

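The ratio of mt-Ts2 to its neighbours differed little between the control oligo libraries (0.796 to 0.802). mt-Ts2 lies directly between mt-Th and mt-Tl2 and is shorter than a read of 141 nt, so 1 read can cover more than 1 of them. The part of shared reads in this ratio was not tested. Erythroid markers, with 5 of 5 genes kept, summed to 156, 835 and 2165 TPM in control oligo libraries 1, 2 and 3, to 1992, 2960 and 264 TPM in knockdown libraries 2, 3 and 4 and to 264 to 613 TPM in sham. Knockdown library 4 was thus low in these markers and high in the neutrophil list. Striatal markers, with 6 of 6 genes kept, summed to 189 to 206 TPM in control oligo and 115 to 239 TPM in knockdown libraries, the lowest again in library 4.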
